A study of Mus musculus with 9 samples.

Results

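The 10 genes described here encode the interleukin-1 (IL-1) ligands Il1b and Il1a, their antagonist Il1rn, the receptor chains Il1r1, Il1r2 and Il1rap, the related cytokine Il18, and the inflammasome proteins Nlrp3, Casp1 and Pycard. They were taken by symbol, through the GENCODE M21 annotation of GRCm38, from count tables of 53379 Ensembl gene IDs, and each of the 10 symbols matched 1 ID. The tables came from RNA sequencing of whole knee joints of male C57BL/6 mice. In the operated groups, osteoarthritis was brought on by transection of the anterior cruciate ligament (ACLT), which leaves the joint unstable. There were 3 groups with 3 libraries each. PC2 joints were operated on at 8 weeks of age, received a lentivirus expressing PC2 in the joint cavity 1 week later, and were collected 8 weeks after the injection. Luc joints had the same operation and timing with a control lentivirus expressing Luc. Non surgery joints had no operation, and their age is not stated in the labels. Virus was injected into the cavity, so the labels tie its expression to no particular joint cell type. The RNA of each group was mixed before sequencing, and the 3 libraries of a group are technical repeats of that mixture, so every SD, SE and p-value below measures technical spread and holds no difference between mice. How many mice made up a pool is not stated. Luc and Non surgery joints differ by operation, injection and pool together, and possibly by age, and these cannot be told apart. The same holds for PC2 and Non surgery joints. PC2 and Luc joints differ by virus and pool together, which cannot be told apart either.

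The libraries held 17835989 to 19004316 counts, and 17478 genes had enough counts to be tested. All 10 genes were among them. Col2a1, the collagen of cartilage, was at 3914 CPM (counts per 1000000 counts of the scaled library) in PC2, 2272 CPM in Luc and 220.1 CPM in Non surgery libraries. The summed level of 12 skeletal muscle markers was 26400 to 26600 CPM in PC2, 22720 to 23240 CPM in Luc and 60360 to 61850 CPM in Non surgery libraries. The share of transcripts from these muscle genes thus differed between pools. Summed CPM of 8 erythroid markers was 15190 to 15490 in PC2, 13710 to 16000 in Luc and 24430 to 26320 in Non surgery libraries. The part of such tissue differences in the levels of the 10 genes was not tested. In such bulk RNA, fewer cells of a type and less RNA per cell cannot be told apart.

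IL-1β and IL-1α are secreted or released cytokines that bind the receptor IL-1R1, which then recruits the accessory chain IL1RAP and signals through MYD88 to NF-κB and MAP kinases. IL1RN, the receptor antagonist, occupies IL-1R1 without signalling, and IL-1R2 binds the ligands as a decoy because it lacks the signalling domain. IL-1β and IL-18 are made as precursors that caspase-1 cleaves inside the inflammasome, a complex of a sensor such as NLRP3 with the adaptor ASC, the product of Pycard. In joints, IL-1 is known as an inducer of matrix proteases, chemokines and prostaglandin synthesis in chondrocytes and synovial cells. The counts measure transcripts only, and neither cleavage nor secretion was measured.

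Il1a and Il1b lie 54.6 kb apart on chromosome 2, both on the minus strand. Il1r2 and Il1r1 lie 99.85 kb apart on chromosome 1, both on the plus strand. The members of each neighbouring pair changed in opposite directions between Luc and Non surgery libraries. The 250 bases before 1 RefSeq start (GRCm38.p6) of each of these genes are therefore shown, in the direction of transcription. Capitals mark matches, on either strand, to the AP-1 motif TGANTCA or to an NF-κB motif (GGG, any 2 bases, TTTCC).
Il1b, chr2:129371140-129371389, minus strand: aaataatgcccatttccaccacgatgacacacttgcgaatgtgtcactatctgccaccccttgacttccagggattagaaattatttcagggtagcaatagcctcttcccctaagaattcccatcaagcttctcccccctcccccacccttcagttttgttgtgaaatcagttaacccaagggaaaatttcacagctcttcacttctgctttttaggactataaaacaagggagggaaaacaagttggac
Il1a, chr2:129309973-129310222, minus strand: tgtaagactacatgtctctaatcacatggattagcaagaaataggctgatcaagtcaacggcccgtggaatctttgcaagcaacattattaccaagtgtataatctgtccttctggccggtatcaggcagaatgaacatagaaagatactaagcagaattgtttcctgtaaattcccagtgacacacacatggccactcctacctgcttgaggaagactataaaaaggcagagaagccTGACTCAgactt
Il1r1, chr1:40224830-40225079, plus strand: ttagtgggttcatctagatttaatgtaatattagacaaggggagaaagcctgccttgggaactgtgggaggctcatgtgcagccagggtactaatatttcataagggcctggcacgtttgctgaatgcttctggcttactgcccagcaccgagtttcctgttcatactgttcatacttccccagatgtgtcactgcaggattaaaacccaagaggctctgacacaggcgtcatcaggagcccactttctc
Il1r2, chr1:40085843-40086092, plus strand: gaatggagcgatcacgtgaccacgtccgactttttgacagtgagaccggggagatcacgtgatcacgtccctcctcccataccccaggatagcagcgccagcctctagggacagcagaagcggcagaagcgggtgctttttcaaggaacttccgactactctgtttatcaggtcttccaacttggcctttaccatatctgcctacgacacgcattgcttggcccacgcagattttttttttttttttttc
Of these 4 windows, that of Il1a held a match to the AP-1 motif, 12 to 6 bases before the start, and no window held the NF-κB letters. Of 32851 RefSeq promoter windows of the same length, 6.75% held the AP-1 motif and 1.41% the NF-κB motif. RefSeq gave 14 windows for the 10 genes, since some have several starts, and matches were found in 3 of them, belonging to Il1a and Il1rn. The Il1rn windows held an AP-1 match 141 to 135 bases before the first RefSeq start and an NF-κB match 51 to 42 bases before the third. The Il1r2 window lies at a RefSeq start 12014 bases inside the GENCODE gene. Il1r1 has a second RefSeq start 41506 bases inside its GENCODE gene, whose window is not shown and held no match. A match of letters is a description of the sequence and shows no binding.

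Operated joints with the control virus were first set against unoperated joints. Transcripts of Il1b, Nlrp3, Il1r1 and Casp1 rose in Luc libraries, and those of Il1r2, Il1a, Il1rap, Pycard, Il18 and Il1rn fell. The ligand Il1b was 4.05-fold higher while the decoy receptor Il1r2 was 3.89-fold lower. A gene is called here at an adjusted p under 0.05 in edgeR's quasi-likelihood test, with Benjamini-Hochberg adjustment over all tested genes. All 10 genes were called, 4 higher and 6 lower, and 58.8% of all tested genes were called in this comparison, 31.1% higher and 27.7% lower. At least 2-fold changes were found in 5 of the 10, 2 higher and 3 lower, against 15.7% of all tested genes (9.43% higher and 6.32% lower). Luc and Non surgery libraries did not overlap for any of the 10 genes, nor for 62.9% of all tested genes. The median size of the log2 fold change, taken without its sign, was 0.96 over the 10 genes and 0.33 over all tested genes. Fold changes are relative to TMM scaling, in which the median log2 fold change of all genes was 0.02. Scaling by library size alone moved that median to 0.185 and the share of called genes that were higher to 70.1%, against 52.8% with TMM.

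**Figure D1:**
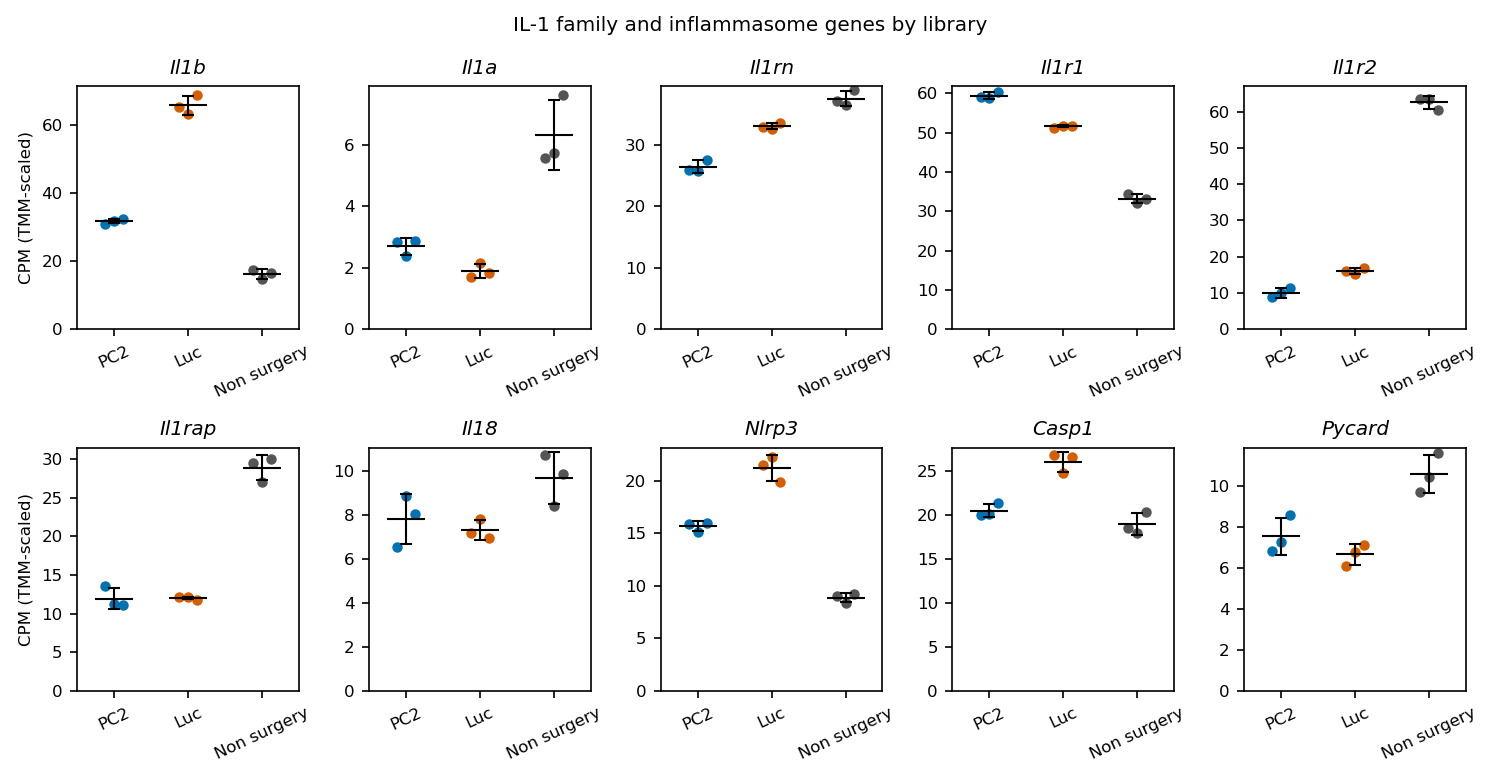
Level of each of the 10 genes in every library, in CPM on TMM-scaled library sizes (y axis from 0). Points are libraries, horizontal bars the mean and whiskers the SD over 3 libraries of 1 RNA pool. Il1b was highest in Luc libraries (63.2 to 68.8 CPM), and Il1r2 was highest in Non surgery libraries (60.6 to 63.6 CPM).

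Among the ligands, Il1b (ENSMUSG00000027398, chromosome 2, 129364570 to 129371139) had 65.4, 63.2 and 68.8 CPM in Luc libraries, against 17.4, 14.7 and 16.6 CPM in Non surgery libraries. Every Luc library was above every Non surgery library, and the log2 fold change was 2.02 ± 0.06 (SE, edgeR adjusted p = 3.04e-14), larger in size than that of 96.8% of tested genes. Il1a (ENSMUSG00000027399, chromosome 2, 129299610 to 129309972), the alarmin-type ligand that is active without cleavage by caspase-1, went the other way. It had 1.72, 2.17 and 1.83 CPM in Luc libraries, against 5.58, 5.75 and 7.63 CPM in Non surgery libraries. These are low levels, with 33 to 41 counts in each Luc and 93 to 127 counts in each Non surgery library, and the groups did not overlap. Il1a fell by 1.73 ± 0.18 on the log2 scale (adjusted p = 3.14e-07).

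Il1rn (ENSMUSG00000026981, chromosome 2, 24336853 to 24351494), the antagonist, had 32.9, 32.6 and 33.6 CPM in Luc libraries, against 37.2, 36.5 and 38.9 CPM in Non surgery libraries. The groups were close but did not overlap, and Il1rn fell by 0.18 ± 0.05 on the log2 scale (adjusted p = 0.00583). That call was lost with library-size scaling, at -0.02 (adjusted p = 0.717). Il18 (ENSMUSG00000039217, chromosome 9, 50554827 to 50581840), which drives interferon-γ production in lymphocytes, had 7.17, 7.82 and 6.95 CPM in Luc libraries, against 10.7, 8.40 and 9.85 CPM in Non surgery libraries. It fell by 0.40 ± 0.13 (adjusted p = 0.0116), a call that was lost without Non surgery replicate 1, at -0.32 (adjusted p = 0.0574), and with library-size scaling, at -0.24 (adjusted p = 0.106).

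The receptor genes moved apart. Il1r1 (ENSMUSG00000026072, chromosome 1, 40225080 to 40317257), the signalling receptor, had 51.3, 51.8 and 51.8 CPM in Luc libraries, against 34.4, 32.2 and 33.1 CPM in Non surgery libraries, a rise of 0.64 ± 0.05 on the log2 scale (adjusted p = 2.3e-09). Il1r2 (ENSMUSG00000026073, chromosome 1, 40074079 to 40125231), the decoy, had 16.0, 15.3 and 16.9 CPM in Luc libraries, against 63.6, 63.6 and 60.6 CPM in Non surgery libraries. All Luc libraries lay far below all Non surgery libraries, and Il1r2 fell by 1.96 ± 0.07 (adjusted p = 3.23e-13). Il1rap (ENSMUSG00000022514, chromosome 16, 26581704 to 26730117), the accessory chain that both IL-1R1 and the IL-33 receptor need, had 12.1, 12.1 and 11.8 CPM in Luc libraries, against 29.6, 27.0 and 30.1 CPM in Non surgery libraries. It fell by 1.27 ± 0.08 (adjusted p = 8.84e-10), so the accessory chain did not follow Il1r1.

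Of the inflammasome genes, Nlrp3 (ENSMUSG00000032691, chromosome 11, 59541568 to 59566956), the sensor, had 21.5, 22.3 and 19.9 CPM in Luc libraries, against 8.99, 8.40 and 9.19 CPM in Non surgery libraries. The groups were well apart, and Nlrp3 rose by 1.26 ± 0.08 on the log2 scale (adjusted p = 5.28e-10), a 2.4-fold change. Casp1 (ENSMUSG00000025888, chromosome 9, 5298517 to 5307265), the protease, had 26.8, 24.7 and 26.5 CPM in Luc libraries, against 18.5, 17.9 and 20.3 CPM in Non surgery libraries, a smaller rise of 0.46 ± 0.07 (adjusted p = 2.26e-05). Pycard (ENSMUSG00000030793, chromosome 7, 127989708 to 127993867), the adaptor that links sensor and protease, had 6.08, 6.77 and 7.11 CPM in Luc libraries, against 9.71, 10.4 and 11.6 CPM in Non surgery libraries. It fell by 0.67 ± 0.12 (adjusted p = 9.54e-05), so the sensor and the protease were higher and the adaptor lower in the same libraries.

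The reads of 4 of these genes can be affected by genes on the opposite strand. The shared exon bases are 12.8% for Pycard, 11.2% for Il1a, 4.86% for Il1rap and 1.31% for Il1b, and the strand setting of the counting is not stated. The antisense genes had at most 25 counts per library. Il1bos had 11 to 25 counts per library, the partner of Il1a, Gm14023, 5 to 22, and the partners of Pycard and Il1rap, Gm45205 and Gm20319, at most 5. Beside Il1a these counts are not few. Gm14023 had 5 to 14 counts in each Luc library, where Il1a had 33 to 41, and 15 to 22 in each Non surgery library, where Il1a had 93 to 127.

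Joints with the PC2 virus were then set against joints with the control virus, all operated on. Il1b, Il1r2, Nlrp3, Casp1 and Il1rn fell in PC2 relative to Luc libraries, and Il1r1 rose. Il1b, the member with the largest change, was 2.07-fold lower. In all, 6 of the 10 genes were called, 1 higher and 5 lower, and 34.7% of all tested genes were called, 16.1% higher and 18.6% lower. Only Il1b among the 10 changed at least 2-fold, against 3.31% of all tested genes (1.3% higher and 2% lower). PC2 and Luc libraries did not overlap for 7 of the 10 genes, and for 48% of all tested genes. The median size of the log2 fold change, without its sign, was 0.33 over the 10 genes and 0.18 over all tested genes.

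Il1b had 31.0, 31.9 and 32.4 CPM in PC2 libraries, against 65.4, 63.2 and 68.8 CPM in Luc libraries. Each PC2 library was below each Luc library by a wide margin, and Il1b fell by 1.05 ± 0.06 on the log2 scale (edgeR adjusted p = 5.41e-10). Il1a had 2.83, 2.39 and 2.89 CPM in PC2 libraries, against 1.72, 2.17 and 1.83 CPM in Luc libraries. These libraries did not overlap, but with 47 to 55 counts in each PC2 library the log2 fold change of 0.50 ± 0.20 did not pass (adjusted p = 0.0628). Il1rn had 25.9, 25.7 and 27.6 CPM in PC2 libraries, against 32.9, 32.6 and 33.6 CPM in Luc libraries, and fell by 0.32 ± 0.05 (adjusted p = 0.000167). Thus the antagonist was lower together with the ligand, by a smaller amount. Il18 had 6.55, 8.83 and 8.03 CPM in PC2 libraries, against 7.17, 7.82 and 6.95 CPM in Luc libraries, and these overlapped, with a log2 fold change of 0.09 ± 0.13 (adjusted p = 0.611).

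Il1r1 had 59.0, 58.8 and 60.5 CPM in PC2 libraries, against 51.3, 51.8 and 51.8 CPM in Luc libraries. The groups did not overlap and Il1r1 rose by 0.20 ± 0.04 on the log2 scale (adjusted p = 0.00153), a 1.15-fold difference in the same direction as that between Luc and Non surgery libraries. Il1r2 had 8.75, 9.89 and 11.4 CPM in PC2 libraries, against 16.0, 15.3 and 16.9 CPM in Luc libraries, and fell by 0.68 ± 0.08 (adjusted p = 1.02e-05). It was thus lowest in PC2 libraries among the 3 groups. Il1rap had 13.5, 11.2 and 11.1 CPM in PC2 libraries, against 12.1, 12.1 and 11.8 CPM in Luc libraries. These overlapped, with a log2 fold change of -0.01 ± 0.09 (adjusted p = 0.952) whose sign depended on the scaling and on single libraries.

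Nlrp3 had 15.9, 15.1 and 16.0 CPM in PC2 libraries, against 21.5, 22.3 and 19.9 CPM in Luc libraries, and fell by 0.44 ± 0.07 on the log2 scale (adjusted p = 0.000204). Casp1 had 20.01, 20.1 and 21.3 CPM in PC2 libraries, against 26.8, 24.7 and 26.5 CPM in Luc libraries, and fell by 0.35 ± 0.07 (adjusted p = 0.000816). For both genes every PC2 library was below every Luc library. Pycard had 6.81, 7.26 and 8.55 CPM in PC2 libraries, against 6.08, 6.77 and 7.11 CPM in Luc libraries, and the overlapping groups gave 0.18 ± 0.12 (adjusted p = 0.26).

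**Figure D2:**
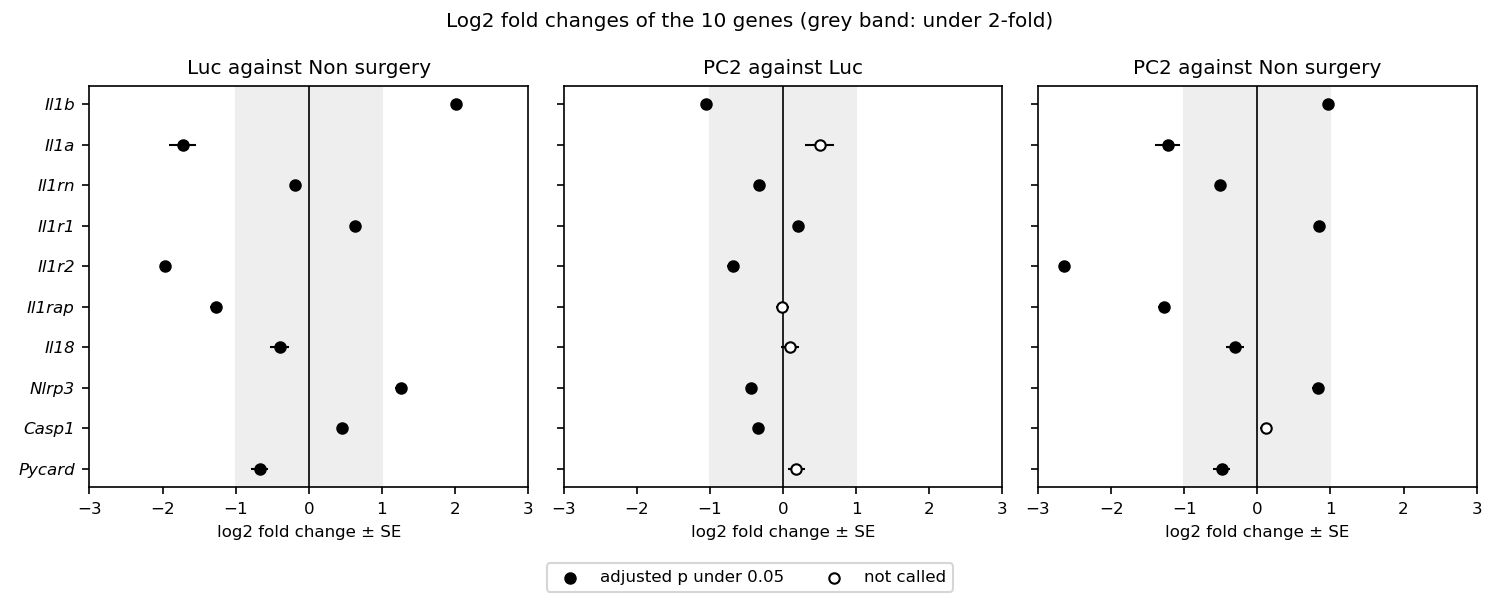
Log2 fold changes (x axis, with SE) of the 10 genes in the 3 comparisons, from 1 edgeR fit over 9 libraries. Filled points have an adjusted p under 0.05, open points do not, and the grey band marks changes under 2-fold. Il1b lies at 2.02 for Luc against Non surgery and at -1.05 for PC2 against Luc, and Il1r2 lies at -1.96 and -0.68.

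The third comparison set PC2 against Non surgery libraries, and it shares its libraries with the others. Il1r1, Il1b and Nlrp3 rose, and Il1r2, Il1rap, Il1a, Il1rn, Pycard and Il18 fell. Il1r2 had the largest change, at 10.01 ± 1.32 CPM in PC2 and 62.6 ± 1.74 CPM in Non surgery libraries (SD, n = 3 each), 6.25-fold lower (log2 -2.64 ± 0.08, edgeR adjusted p = 1.46e-14). In all, 3 of the 10 were higher and 6 lower, against 62.7% of all tested genes called (31.5% higher and 31.2% lower). At least 2-fold changes were found in 3 of the 10, the falls of Il1r2, Il1rap and Il1a, against 16.4% of all tested genes (9.83% higher and 6.53% lower). The libraries did not overlap for 8 of the 10 genes and for 66% of all tested genes.

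Il1b was 1.96-fold higher in PC2 than in Non surgery libraries, at 31.8 ± 0.71 and 16.3 ± 1.39 CPM (log2 0.97 ± 0.06, adjusted p = 8.89e-10). Nlrp3 was 1.77-fold higher, at 15.7 ± 0.488 and 8.86 ± 0.414 CPM (adjusted p = 1.82e-07). Both thus lay between Luc and Non surgery libraries in the PC2 libraries. Casp1 was at 20.5 ± 0.719 CPM in PC2 and 18.9 ± 1.23 CPM in Non surgery libraries, with a log2 fold change of 0.11 ± 0.07 (adjusted p = 0.172), which passed with library-size scaling at 0.27 (adjusted p = 0.00291). Il1r1 was 1.79-fold higher (adjusted p = 5.19e-11), Il1rap 2.42-fold lower (adjusted p = 7.66e-10) and Il1a 2.34-fold lower (adjusted p = 8.1e-06). Il1rn was 1.42-fold lower (adjusted p = 2.91e-07) and Pycard 1.4-fold lower (adjusted p = 0.00126). The call of Il18 (log2 -0.31 ± 0.12, adjusted p = 0.0409) was lost in 8 of the alternatives, among them the leaving out of PC2 replicate 1 or 3 or of Non surgery replicate 1 or 3, with adjusted p of 0.0514 to 0.308. With library-size scaling, 66.9% of the called genes were higher, against 50.3% with TMM, and the median of all genes was 0.168 in place of 0.01.

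Ratios of a pair of genes within a library do not depend on library scaling. The ratio of Il1rn to Il1b, antagonist to agonist, was 0.288, 0.277 and 0.293 in PC2 libraries, 0.173, 0.178 and 0.168 in Luc libraries, and 0.734, 0.853 and 0.808 in Non surgery libraries, in counts per kilobase of exon. Antagonist transcripts relative to Il1b were thus lowest in Luc libraries, 4.61-fold lower than in Non surgery libraries, and 1.65-fold higher in PC2 than in Luc libraries. The ratio of Il1r2 to Il1r1, decoy to signalling receptor, was 0.495, 0.561 and 0.628 in PC2 libraries, 1.04, 0.988 and 1.09 in Luc libraries, and 6.18, 6.59 and 6.10 in Non surgery libraries. Its mean in Luc libraries was 6.06-fold below that in Non surgery libraries, and its mean in PC2 libraries 1.86-fold below that in Luc libraries. The libraries did not overlap in any of the 6 pairs of groups compared, and each exact two-sided permutation test gave p = 0.1, the smallest that 3 libraries against 3 allow (also 0.1 with Benjamini-Hochberg adjustment over 6 tests).

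**Figure D3:**
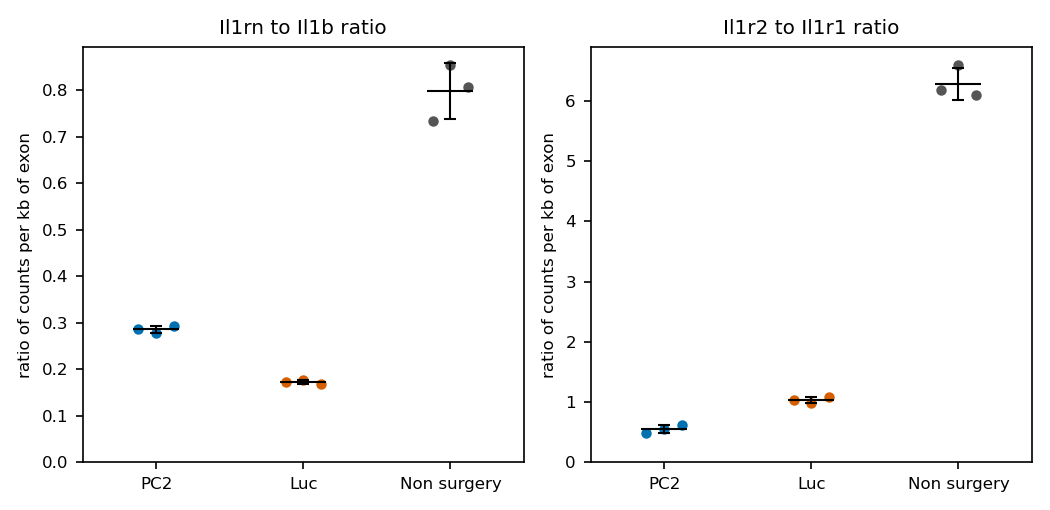
Ratios of counts per kilobase of exon within each library (y axes from 0) for Il1rn to Il1b and for Il1r2 to Il1r1, with points for libraries, bars for the mean and whiskers for the SD over 3 libraries. The Il1rn to Il1b ratio averaged 0.286 in PC2, 0.173 in Luc and 0.798 in Non surgery libraries, and the Il1r2 to Il1r1 ratio 0.561, 1.04 and 6.29.

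Levels can be ranked between genes only per length, here in CPM per kilobase of exon, counting all annotated exon bases of a gene. The order depends on this choice. Il1rap has 11360 exon bases but a longest transcript of 4520 bases, and Il1rn 5535 against 2554, while Casp1 has 1497 by both. The places of Il1rap and Il1rn, and of genes near them, are thus uncertain. An order by longest transcript was not computed. In PC2 libraries the order began with Il1b at 16.7 ± 0.372, Casp1 at 13.7 ± 0.48 and Il1r1 at 9.34 ± 0.144 (SD, n = 3). It went on with Il18, Il1r2, Il1rn, Nlrp3, Pycard and Il1a and ended with Il1rap at 1.05 ± 0.121, and of these neighbours only the libraries of Il1r2 and Il1rn overlapped. In Luc libraries Il1b led at 34.5 ± 1.49, followed by Casp1 at 17.4 ± 0.769 and by Il1r2 and Il1r1, which overlapped, while Il1rap and Il1a, which also overlapped, were last at 1.06 ± 0.016 and 0.965 ± 0.119. In Non surgery libraries Il1r2 led at 32.8 ± 0.913, followed by Casp1 at 12.6 ± 0.823, and Nlrp3 was last at 2.18 ± 0.102. Il1b had rank 4 there at 8.52 ± 0.73 and overlapped Il18 at 9.37 ± 1.14. The leading transcript per kilobase of exon was therefore the decoy receptor in unoperated joints and Il1b in both operated groups.

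Markers of the cells that can carry these transcripts moved with some of them. For the marker counts below, the shares over all tested genes were 31.1% higher and 27.7% lower in Luc against Non surgery libraries. They were 16.1% and 18.6% in PC2 against Luc, and 31.5% and 31.2% in PC2 against Non surgery libraries. Il1b is known from monocytes, macrophages and neutrophils. Of 12 monocyte and macrophage markers, 8 rose and 1 fell in Luc against Non surgery libraries, with a median log2 fold change of 0.29, and their summed level was 3013 to 3184 CPM in Luc and 2477 to 2514 CPM in Non surgery libraries. Most of that sum was Lyz2, at 1964 CPM in Luc and 1482 CPM in Non surgery libraries. The largest rises were those of Cx3cr1, a receptor of monocytes and macrophages (1.44), and Csf1r, the receptor for macrophage colony-stimulating factor (0.86), against 2.02 for Il1b. Between PC2 and Luc libraries 1 of the 12 rose and 8 fell, with a median of -0.19. The sum of 2964 to 3023 CPM in PC2 libraries overlapped that in Luc libraries. The part of these shifts in the level of Il1b was not tested.

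Il1r2 is known from neutrophils, monocytes and B cells. Of 12 neutrophil markers, 3 rose and 9 fell in Luc against Non surgery libraries, with a median of -0.30, and their sum was 11180 to 11750 CPM in Luc and 13700 to 14050 CPM in Non surgery libraries. The chemokine receptor Cxcr2, a marker of mature neutrophils, fell by 0.77, and Elane by 0.74. Mmp8, the neutrophil collagenase, fell by 0.64, while Ly6g rose by 0.83. Between PC2 and Luc libraries 6 of the 12 rose and 3 fell, with a sum of 11940 to 12170 CPM in PC2 libraries, and a median of 0.09. The largest changes were the rise of Camp, a granule peptide gene (0.46), and the falls of Retnlg (-0.46), Cxcr2 (-0.37) and Mmp8 (-0.36). The 12 markers thus did not move as 1 group between PC2 and Luc libraries. The largest parts of their sum were Ngp and S100a9, at 3249 and 2849 CPM in PC2 libraries. The part of neutrophil content in the level of Il1r2 was not tested.

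Il1r1 and Il33 are known from stromal cells. All 8 chondrocyte markers and all 9 fibroblast and synovial lining markers rose in Luc against Non surgery libraries, with median log2 fold changes of 2.23 and 1.56, against 0.64 for Il1r1. The chondrocyte markers summed to 7387 to 7506 CPM in PC2, 4722 to 4806 CPM in Luc and 774.6 to 867.4 CPM in Non surgery libraries. The fibroblast markers summed to 36000 to 36420 CPM in PC2, 30590 to 31320 CPM in Luc and 8615 to 9448 CPM in Non surgery libraries. Between PC2 and Luc libraries, where Il1r1 rose by 0.20, all 8 chondrocyte markers rose, with a median of 0.54. Of the fibroblast markers 4 rose and 4 fell there, with a median of -0.10, and their sum was made up mostly of Col1a1 and Col1a2 (14300 and 12010 CPM in PC2 libraries, 11460 and 10200 CPM in Luc libraries), which both rose. The part of these tissues in the level of Il1r1 was not tested.

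Keratinocytes of the skin can hold Il1a, Il18 and Il1rn. Of 8 keratinocyte markers only Krt10, Trp63 and Sfn passed the filter, Krt14 and Dsg3 had 0 counts in all libraries, and Krt5 and Krt1 had at most 2 counts per group. The summed level of the 8 was 14.2 to 15.9 CPM in PC2, 12.2 to 12.7 CPM in Luc and 14.4 to 15.1 CPM in Non surgery libraries. In Luc against Non surgery libraries 1 of the 3 tested markers was called lower and 0 higher, and their median was 0.20 on the log2 scale. Trp63, the transcription factor of basal epithelium, fell 2.01-fold (edgeR adjusted p = 1.68e-05), while Krt10 (0.35, edgeR adjusted p = 0.404) and Sfn (0.20, adjusted p = 0.167) were not called. The part of skin in the levels of the 3 genes was not tested.

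Immediate-early genes, which are transcribed soon after a stimulus, moved with Il1b between the groups, apart from Atf3. All 14 rose in Luc against Non surgery libraries, with a median log2 fold change of 2.05, and all 14 fell in PC2 against Luc libraries, with a median of -0.80. In PC2 against Non surgery libraries 13 rose and Atf3 fell (-0.67), with a median of 1.55. Their summed level was 1932 to 1981 CPM in PC2, 3553 to 3670 CPM in Luc and 476.5 to 511.6 CPM in Non surgery libraries. Fosb, a subunit of AP-1, had 207.3 CPM in PC2, 551.4 CPM in Luc and 2.17 CPM in Non surgery libraries. Their part in the level of Il1b was not tested.

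The genes whose levels over the 9 libraries lay closest to Il1b, by the root mean square difference of centred log2 CPM among 12004 genes, were Sost (0.112), Gbp4 (0.125), Nr4a1 (0.13), Cd101 (0.135) and Apold1 (0.137). Sost encodes the osteocyte inhibitor sclerostin and Nr4a1 is an immediate-early nuclear receptor. Sost had 16.8 ± 1.39 CPM in PC2, 31.0 ± 0.668 CPM in Luc and 8.16 ± 0.6 CPM in Non surgery libraries. Closest to Il1r1 were Bcl9l (0.0408), Adamts5 (0.0429), Kank1 (0.0447), Cnpy2 (0.0474) and Wsb1 (0.0493). Adamts5, an aggrecan-cleaving protease of cartilage, had 78.1 ± 2.84 CPM in PC2, 71.0 ± 2.88 CPM in Luc and 44.2 ± 2.06 CPM in Non surgery libraries. With 3 pools these likenesses rest on 3 independent points.

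Of 14 other IL-1 family genes listed, 13 were matched to a gene ID and 8 were tested, of which 2 rose, 2 fell and 4 did not pass in Luc against Non surgery libraries (31.1% and 27.7% of all tested genes rose and fell). The median log2 fold change of the 8 was -0.02. Il33, the alarmin of stromal and endothelial cells, rose 2.76-fold, at 21.2 ± 2.24 CPM in Luc and 7.66 ± 1.18 CPM in Non surgery libraries (adjusted p = 7.67e-09), and Il36g, an IL-36 ligand, rose 1.31-fold. The receptor chains for IL-18, Il18r1 and Il18rap, fell by 0.56 and 0.37 on the log2 scale. Between PC2 and Luc libraries, where 16.1% of all tested genes rose and 18.6% fell, 0 of the 8 rose and 3 fell. These were Il18rap (-0.44), Il18r1 (-0.39) and Il1rl1, the receptor for IL-33 (-0.34). Il1rl1 is known from mast cells. Of 8 mast cell and eosinophil markers, 4 rose and 4 fell in PC2 against Luc libraries, and they did not move as 1 group. The mast cell protease genes Mcpt4 (1.13), Cma1 (1.12), Tpsb2 (1.09) and Cpa3 (0.36) rose, while Kit, a mast cell receptor, fell (-0.44), as did the eosinophil genes Epx (-5.11), Prg2 (-4.35) and Siglecf (-1.63). Their part in the level of Il1rl1 was not tested. Il18rap had 47.9 CPM in PC2, 65.0 CPM in Luc and 84.2 CPM in Non surgery libraries. The IL-36 ligands Il36a and Il36b had at most 1 count per group and Il1f10 had none.

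All 23 listed genes of IL-1 receptor signalling were tested, and 8 rose, 7 fell and 8 stayed short of the threshold in Luc against Non surgery libraries, with a median of -0.02. Over all tested genes 31.1% rose and 27.7% fell there, so these counts are near the shares of all genes. The change of at least 2-fold was in Nfkbiz. This gene, which encodes an NF-κB cofactor that IL-1 is known to induce, rose 3.98-fold, at 94.4 CPM in Luc and 23.7 CPM in Non surgery libraries (adjusted p = 6.02e-14), and Tnfaip3, the ubiquitin-editing inhibitor A20, rose 1.72-fold. In PC2 against Luc libraries 1 of the 23 rose and 8 fell, while 14 stayed short of the threshold, and the median was -0.08. Of all tested genes, 16.1% rose and 18.6% fell in that comparison. Nfkbiz fell 2.54-fold to 37.1 CPM in PC2 libraries (adjusted p = 7.67e-11), Tnfaip3 fell 1.58-fold and Nfkbia, the inhibitor IκBα, 1.2-fold. Myd88, the adaptor of the receptor complex, had 39.0 CPM in PC2, 37.8 CPM in Luc and 41.7 CPM in Non surgery libraries and did not pass in any of the 3 comparisons.

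Of 20 other genes of inflammasomes and pyroptosis, 19 were tested. In Luc against Non surgery libraries 5 rose, 7 fell and 7 were not called, against 31.1% higher and 27.7% lower over all tested genes. The median of the 19 was -0.11. The largest change was that of Nlrp6 (-1.97), a sensor at 0.722 CPM in Luc and 2.85 CPM in Non surgery libraries. Nlrc4, the sensor that NAIP proteins activate, fell by 0.58, Mefv, which encodes pyrin, by 0.51, and Txnip, a thioredoxin inhibitor reported to bind NLRP3, by 0.55. The 5 rises, named after their values were seen, were largest in P2rx7 (0.51) and Gsdme (0.40). Between PC2 and Luc libraries, 16.1% of all tested genes rose and 18.6% fell. Of these 19 genes 1 rose and 8 fell, the other 10 did not pass, and the median was -0.13. Falls were largest for Nlrp1b (-0.67), Naip6 (-0.56), Naip2 (-0.54) and Casp4 (-0.47), the caspase of the non-canonical pathway. Values of the Naip and Nlrp1 genes are uncertain, since each belongs to a cluster of similar copies. The DNA sensor Aim2, named after its values were seen, had 20.1 CPM in PC2, 21.4 CPM in Luc and 22.8 CPM in Non surgery libraries, with a log2 fold change of -0.09 (edgeR adjusted p = 0.285) in Luc against Non surgery libraries, where Nlrp3 rose 2.4-fold.

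**Figure D4:**
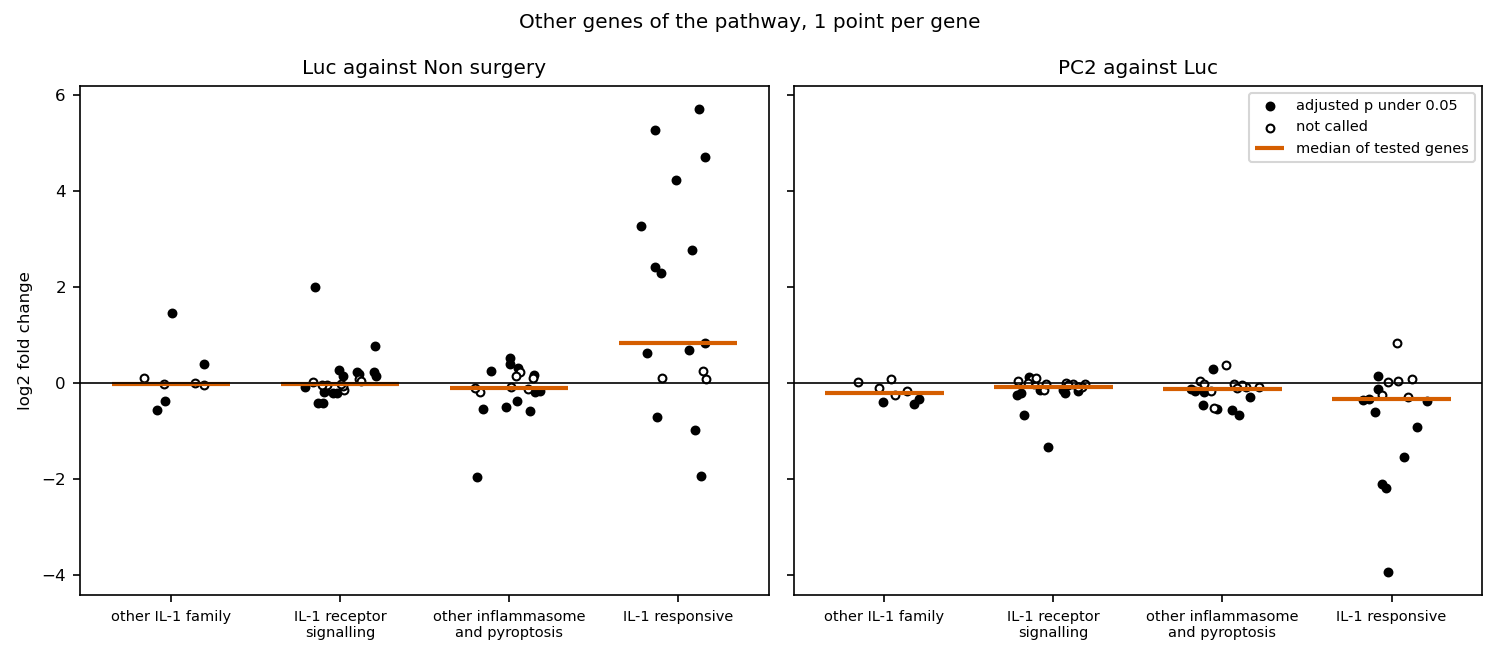
Log2 fold changes (y axis) of the tested genes in 4 lists of the IL-1 pathway for Luc against Non surgery (left) and PC2 against Luc (right), 1 point per gene, with orange lines for the median. The IL-1 responsive genes have medians of 0.84 and -0.33, and the medians of the other 3 lists lie between -0.20 and -0.02.

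Of 20 listed genes known to respond to IL-1 in joint cells, 17 were tested. In Luc against Non surgery libraries 11 rose, 3 fell and 3 were not called, against 31.1% higher and 27.7% lower over all tested genes. The median of the 17 was 0.84, against 0.02 over all tested genes. Cxcl1 and Cxcl2, the neutrophil-attracting chemokines, were at 17.9 and 42.9 CPM in Luc and 0.337 and 1.10 CPM in Non surgery libraries. Mmp3, which encodes stromelysin, was at 112.5 CPM in Luc and 6.02 CPM in Non surgery libraries. The falls, named after their values were seen, were in the chemokine Cxcl5 (-1.95), the siderophore-binding protein gene Lcn2 (-0.98) and Tnf (-0.71). In PC2 relative to Luc libraries, 16.1% of all tested genes rose and 18.6% fell. Of the 17 listed genes 1 rose and 10 fell, while 6 stayed short of the threshold. Their median was -0.33, against 0.01 over all tested genes. The falls reached 15.4-fold in Cxcl2, 4.56-fold in Il6 and 4.33-fold in Ptgs2, the inducible cyclooxygenase, but 1.29-fold in Mmp3, and the rise was in Adamts5 (1.1-fold, adjusted p = 0.0326). Mmp3, at 87.3 CPM in PC2 libraries, thus stayed 14.5-fold above Non surgery libraries, while Il6, at 1.20 CPM in PC2 and 0.786 CPM in Non surgery libraries, did not pass in that comparison (adjusted p = 0.106). Many of these genes also respond to other signals, and the list was chosen with earlier results of these data known.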

How the data were processed

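RNA of whole mouse knee joints was extracted with TRIzol and sequenced from NEBNext Ultra libraries, per the labels' protocols, in 9 libraries that are 3 technical repeats of 1 pool for each group. The deposited values are raw read counts per Ensembl gene ID. The submitters' processing notes name HISAT2, HTSeq, DESeq2 and mm10 with no version, and no source used here gives the annotation release or strand setting. The 5 HTSeq summary lines were left out; reads outside genes were 7.29% to 9.25% and ambiguous reads 5.72% to 6.65% of a library.

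Symbols, coordinates and exon lengths came from GENCODE M21 (GRCm38), which held 53274 of 53379 IDs, and 3 newer symbols were matched through RefSeq synonyms. Il36rn was not matched and is not analysed here, and a check of the gene delivered by the virus is not reported here. Counts were tested with edgeR 4.0.16 (R 4.3.3) in 1 quasi-likelihood fit of all 9 libraries, with TMM factors, filterByExpr at a minimum count of 10, two-sided contrasts and Benjamini-Hochberg adjustment over 17478 genes. Each SE is the size of the log2 fold change divided by the root of its F statistic. The fit was tested on simulated data. Libraries of a group differed by more than counting noise (chi-square per degree of freedom 3.94 to 8.67), so none was a copy. Alternatives included other scalings, no filter, DESeq2 1.42.0, a replicate block and leaving out each library.

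The 10 genes and all lists were chosen with earlier results of these data known. Genes named from a list are up to 4 per comparison with the largest change among those called at 1 CPM or more in the higher group, and the 5 closest in pattern had at least 5 CPM. Other genes named are marked as such or illustrate a count.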

Additional observations from a re-analysis of the deposited data

How the results depend on the processing

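The 10 genes were recomputed in 3 comparisons under other scalings (median-of-ratios factors, library size, TMM without muscle, erythroid and mitochondrial genes), without the filter on low counts, with DESeq2, with only the 2 groups compared, with the replicate number as a block, and without each library, which gave 390 values. Of these, 373 kept their direction and their side of the threshold, 11 lost their call, 1 gained it and 5 changed sign. The lost calls were those of Il18 and, once, Il1rn, and the gained call was that of Casp1 with library-size scaling. The sign changes concern values that were not called, in PC2 against Luc. Il1rap had 0.00267 with median-of-ratios factors, 0.00269 with DESeq2, 0.036 without PC2 replicate 2 and 0.0441 without PC2 replicate 3, within a range of -0.107 to 0.0441 without single libraries. Il18 had -0.00383 without PC2 replicate 2, within a range of -0.00383 to 0.205. In PC2 against Non surgery, the count of members at least 2-fold higher was 0 and became 1 with library-size scaling, and lay between 0 and 1 without single libraries, at 1 without Non surgery replicate 1, with Il1b at 1.96-fold in the reported fit. Per kilobase of the longest transcript, the Il1rn to Il1b ratio was 0.441 in PC2, 0.267 in Luc and 1.23 in Non surgery libraries, and the Il1r2 to Il1r1 ratio 0.69, 1.28 and 7.73, which shifts all groups by 1 factor and leaves the differences between groups as they were.

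Same-numbered libraries of different groups did not deviate together (correlations of -0.0274 to 0.0567), so the numbers do not pair them. With the replicate block, 10327 genes were called in Luc against Non surgery (10279 without it), 6192 in PC2 against Luc (6058) and 11019 in PC2 against Non surgery (10952), and among members the call of Il18 in PC2 against Non surgery was lost (adjusted p = 0.0514). Without single libraries, 9552 to 9880, 4921 to 5328 and 10239 to 10672 genes were called. With 33 to 127 counts per library in Luc and Non surgery, Il1a has the widest error of the 10 genes, and no setting adds the missing spread between mice.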
